A study of Mus musculus with 6 samples.

Results

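Expression of *Nfe2l2*, which encodes the transcription factor NRF2, of 7 genes that NRF2 is known to activate (*Nqo1*, *Hmox1*, *Gclm*, *Gclc*, *Txnrd1*, *Srxn1* and *Slc7a11*), and of the metallothionein genes *Mt1* and *Mt2* was analyzed in endothelial cells (ECs) of the mouse spinal cord. The 10 genes were taken by symbol from a table of 56748 genes, and each symbol stood on a single row. The ECs had been sorted from P16 spinal cords and profiled by RNA-Seq, with 1 library per mouse, to learn what the loss of the RNA-binding protein TDP-43 does to these cells. Control mice (n = 3) carried the floxed *Tardbp* gene, with loxP sites around exon 3, and no Cre. *TDP-43iΔEC* mice (n = 3) carried the same floxed gene together with Cdh5(PAC)-CreERT2, a Cre recombinase that is driven by the promoter of VE-cadherin and becomes active when tamoxifen is present. All 6 mice, controls included, received tamoxifen (1 mg/mL) from P5 to P7, and the mice were of mixed sexes on a C57BL/6 background. No group carried Cre without the floxed gene, so an effect of Cre itself and an effect of the loss of TDP-43 cannot be told apart. The mice are numbered 1 to 3 within each genotype.

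NRF2 is held in the cytoplasm by KEAP1, which hands it to an E3 ubiquitin ligase for destruction. Oxidants and electrophiles modify KEAP1, NRF2 then accumulates in the nucleus, and with small MAF proteins it binds antioxidant response elements (AREs) in genes for glutathione synthesis, the thioredoxin system, quinone reduction and heme breakdown. Much of this control acts on NRF2 protein, which RNA-Seq does not measure. Metallothioneins are small cysteine-rich proteins that bind zinc and copper, and their genes respond to the zinc sensor MTF1 through metal response elements (MREs) and to glucocorticoids. In the CNS both genes are active in astrocytes as well as in ECs.

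Library totals ran from 25704871 to 47270654 counts. *Tardbp* (GRCm39 chr4:148696839-148711490, minus strand), the deleted gene, had 1973, 2282 and 2069 normalized counts (deposited counts divided by DESeq2 size factors) in the controls and 982, 599.9 and 433 in the *TDP-43iΔEC* mice, and the groups did not overlap (ratio of means 0.319, limma adjusted p = 0.287). Its exons overlap those of the antisense gene *Masp2* over 33.1% of their length, and since the counting did not use strand, reads there cannot be told apart. The 5 EC markers *Pecam1*, *Cldn5*, *Kdr*, *Flt1* and *Vwf* summed to between 8829 and 13030 CPM (counts scaled to a common library size with TMM factors) in every library, so the markers of the labelled cell type were abundant throughout. Markers of other cells were also compared. The 5 erythroid genes summed to 6924 to 10556 CPM in the controls and 2029 to 2878 in the *TDP-43iΔEC* mice, the 8 microglia and macrophage genes to 0 to 3.18 and 6.70 to 11.2, the 6 astrocyte genes to 29.2 to 37.7 and 6.57 to 27.1, the 4 neuron genes to 4.81 to 9.55 and 0.737 to 1.99, and the 4 oligodendrocyte genes to 277 to 524 and 15.5 to 403. The oligodendrocyte sums overlapped between the groups and the others did not, while the mural and fibroblast sums (49.4 to 154 and 7.55 to 26.2 CPM over all libraries) overlapped. Of these, *Adgre1* was at 0 in all 6 libraries and *Aqp4* in all 3 *TDP-43iΔEC* libraries. The neuron genes did not go the same way. *Rbfox3* had 2, 0 and 0 counts in the controls and 42, 16 and 50 in the *TDP-43iΔEC* mice. *Map2* had 396 counts in control mouse 2 and 0 in every other library. *Nefl* had 122, 0 and 12 counts in the controls and 0 in the *TDP-43iΔEC* mice. *Mapt* had 83, 0 and 227 against 55, 7 and 0. Control mouse 2 stood apart in detection. Of the 13107 genes tested, 2094 were at 0 in that library and 247 to 1183 in the others, although its total of 45329494 counts was among the higher ones. *Nqo1* and *Srxn1* were at 0 there, *Slc7a11* had 1 count and *Gclc* had 9, whereas no other library had fewer than 28 counts for any of the 10 genes. Log2 fold changes of the 10 genes that rest on that library are therefore given with and without it. The median log2 fold change of all tested genes was -0.02, and it was -0.17 without that library. The levels, coefficients of variation, ratios of means and correlations below include it. In bulk libraries, fewer cells with a transcript and less transcript per cell cannot be told apart.

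In control ECs the 10 genes spanned most of the range of expression. Levels were compared between genes as CPM per kilobase of exonic length. *Mt1* was highest at 43.5 ± 8.45 CPM per kb (SD, n = 3), above 94.1% of 13060 genes with a length, followed by *Hmox1* at 33.1 ± 6.67 and *Nfe2l2* at 22.7 ± 5.43. *Mt2* had 12.8 ± 3.28 and *Gclm* 6.81 ± 2.67. The others were lower. *Txnrd1* had 3.19 ± 1.96 CPM per kb and *Gclc* 2.41 ± 2.44. *Nqo1* had 0.549 ± 0.758, *Srxn1* 0.434 ± 0.457 and *Slc7a11* 0.0844 ± 0.0916, the last above 2.76% of the genes. In this order the step from *Nfe2l2* to *Mt2* was the only one between neighbours that exceeded the sum of their SDs. The order of *Nqo1* and *Srxn1* turned around when the length of the canonical transcript was used. In the *TDP-43iΔEC* mice *Hmox1* came first at 47.6 ± 9.99 CPM per kb and *Mt1* next at 39.8 ± 26.6. *Txnrd1* reached 8.31 ± 0.475 and moved past *Gclm* (6.80 ± 1.12), and *Nqo1* reached 4.95 ± 3.10 and moved past *Gclc* (2.43 ± 1.56).

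Between the genotypes, *Nqo1*, *Hmox1* and *Txnrd1* were the members whose TMM-scaled CPM in all 3 *TDP-43iΔEC* mice lay above those of all 3 controls, and no member lay below. Overlap between groups was judged on that scale throughout. By this measure 3 of 10 members were higher, against 7.38% of all tested genes, and 0 were lower, against 7.93%. None of the 10 passed an adjusted p of 0.05 in limma, where 0.137% of all genes did (0.0305% higher and 0.107% lower). None did with DESeq2, where 1.91% of all genes did (0.813% higher and 1.1% lower), or with edgeR, which called 0 of all genes. At an unadjusted p under 0.05 limma counted 2 members higher (*Nqo1* and *Txnrd1*) and 0 lower, beside 4.26% and 5% of all genes and 9.27% in either direction. By the same measure edgeR counted 1 member, beside 6.47% of all genes, and DESeq2 counted 3, beside 8.62%. The log2 fold change was above 0 for 8 of 10 members, against 49.3% of all genes, with a median of 1.10 beside -0.02 over all genes. Without control mouse 2 it was above 0 for 7 of 10 members, against 41.2% of all genes, and the median was 0.47 beside -0.17. The 10 genes were not chosen independently of these mice, so these counts are descriptions of the set. The plot of the 10 genes by mouse shows that the groups differed for some members and were mixed for others.

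**Figure D1:**
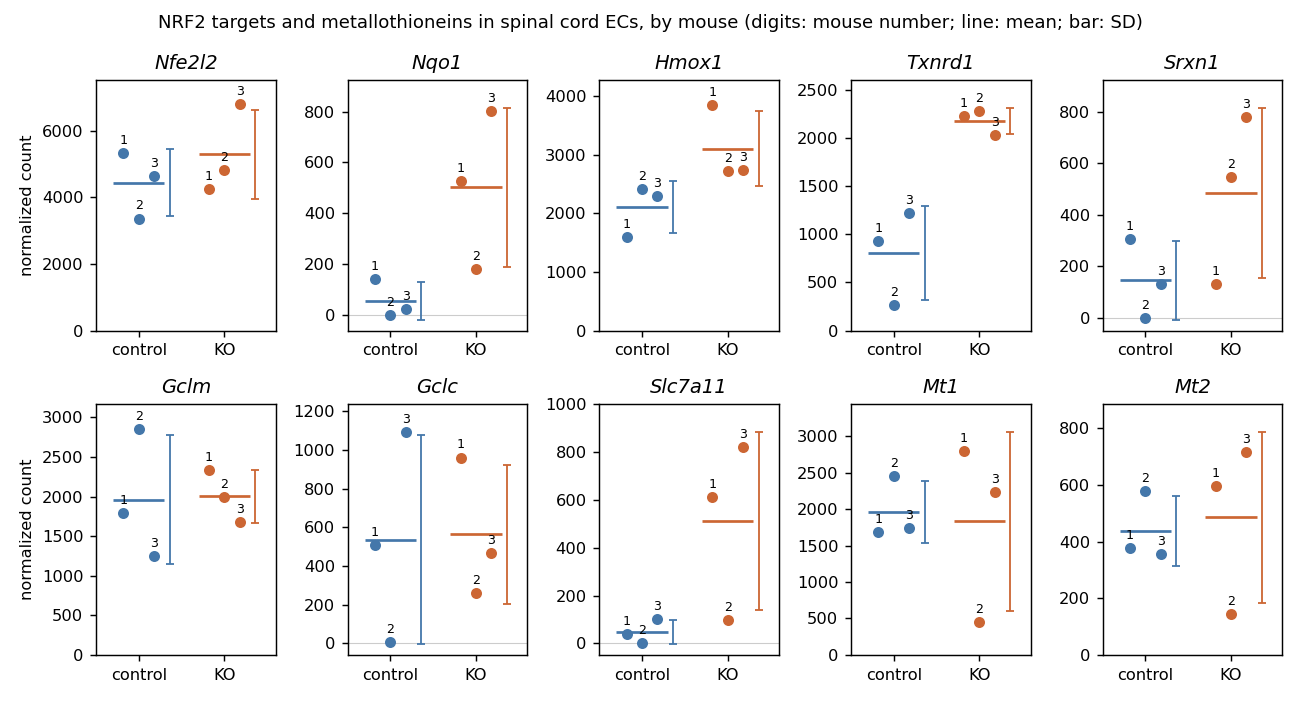
Normalized count (deposited count divided by the DESeq2 size factor) of each of the 10 genes on its own linear axis, with 1 point per mouse numbered as in the text, blue for control and orange for knockout (*TDP-43iΔEC*) mice. Horizontal lines are means and vertical bars SDs (n = 3). The points of the groups do not overlap for *Nqo1*, *Hmox1* and *Txnrd1* and overlap for the other 7 genes.

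*Nfe2l2* (chr2:75504739-75534985, minus strand) had 5339, 3366.5 and 4635 normalized counts in control mice 1 to 3 and 4260.47, 4832 and 6806 in *TDP-43iΔEC* mice 1 to 3. The groups overlapped, with control mouse 2 lowest and *TDP-43iΔEC* mouse 3 highest. The log2 fold change of *TDP-43iΔEC* over control was 0.17 (SE 0.27, 95% CI -0.45 to 0.78, limma adjusted p = 0.862). Without control mouse 2 it was -0.04, where the median of all genes was -0.17. The mRNA of NRF2 itself thus showed no difference that could be detected with 3 mice per group.

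*Nqo1*, a quinone reductase that is a standard readout of NRF2 activity, lies at chr8:108113835-108129934 on the minus strand. It had 139, 0 and 22.7 normalized counts in the controls and 525, 179 and 803 in the *TDP-43iΔEC* mice. Every *TDP-43iΔEC* mouse was above every control, and the ratio of the means was 9.32 (53.9 ± 74.5 against 502 ± 313). The log2 fold change was 5.19 (SE 2.11, 95% CI 0.40 to 9.98), with an unadjusted p of 0.0368 and an adjusted p of 0.513 in limma. Much of this size came from the 0 in control mouse 2, without which the log2 fold change was 2.84 (limma unadjusted p = 0.108). The exact permutation test over mice gave p = 0.1, the smallest value that 3 against 3 allows, here as for *Hmox1* and *Txnrd1*.

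*Hmox1* (chr8:75820241-75827217, plus strand) encodes heme oxygenase 1, which breaks heme down to biliverdin, iron and carbon monoxide. It had 1599.7, 2420.29 and 2287 normalized counts in the controls and 3846, 2720.24 and 2737 in the *TDP-43iΔEC* mice, with *TDP-43iΔEC* mouse 1 well above all others. The ratio of means was 1.48, and the log2 fold change was 0.57 (SE 0.29, 95% CI -0.08 to 1.23, limma adjusted p = 0.570). The log2 fold change was 0.65 without control mouse 2 and 0.36 without *TDP-43iΔEC* mouse 1. Macrophages and microglia also make heme oxygenase 1. Of their 8 marker genes only 2 passed the count filter, and these differed. *Ctss* had 0, 0 and 1.62 normalized counts in the controls and 254, 90.6 and 240 in the *TDP-43iΔEC* mice. *C1qb* had 39.9, 0 and 65.7 in the controls and 112, 0 and 0 in the *TDP-43iΔEC* mice, so its groups overlapped. The summed hemoglobin and *Alas2* counts were lower in the *TDP-43iΔEC* mice. The part of macrophages, microglia or erythroid cells in *Hmox1* was not tested.

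*Txnrd1* (chr10:82669785-82733546, plus strand), the cytosolic thioredoxin reductase that keeps thioredoxin reduced, gave the lowest p of the 10 genes. Its normalized counts were 928, 271 and 1224 in the controls and 2228, 2283 and 2029 in the *TDP-43iΔEC* mice. The *TDP-43iΔEC* mice were close together and all above the controls, whose lowest value was again that of control mouse 2. In CPM per kb the coefficient of variation was 61.5% in the controls and 5.72% in the *TDP-43iΔEC* mice. The means were 808 ± 488 and 2180 ± 133 normalized counts (SD, n = 3), a ratio of 2.6995. The log2 fold change was 1.64 (SE 0.51, 95% CI 0.48 to 2.80, limma unadjusted p = 0.0109, adjusted p = 0.391). It fell to 0.97 without control mouse 2, with an unadjusted p of 0.0191 and an adjusted p of 0.466 in limma. Across all alternatives its unadjusted p stayed under 0.05, and its adjusted p lay between 0.272 and 0.698.

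*Srxn1* (chr2:151947436-151957687, plus strand) encodes sulfiredoxin, which repairs overoxidized peroxiredoxins. It had 306, 0 and 129.8 normalized counts in the controls and 129.7, 547 and 779 in the *TDP-43iΔEC* mice. The groups overlapped, since *TDP-43iΔEC* mouse 1 was at the level of control mouse 3 and below control mouse 1. The log2 fold change of 3.37 (SE 2.30, 95% CI -1.85 to 8.60, limma adjusted p = 0.647) became 0.56 without control mouse 2.

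The glutathione genes gave no common picture. Glutamate-cysteine ligase, which carries out the rate-limiting step of glutathione synthesis, is built from a modifier subunit (*Gclm*, chr3:122039126-122065061, plus strand) and a catalytic subunit (*Gclc*, chr9:77661797-77701770, plus strand). *Gclm* had 1792, 2849 and 1249 normalized counts in the controls and 2341, 1994 and 1677 in the *TDP-43iΔEC* mice. All *TDP-43iΔEC* values lay within the range of the controls, and the log2 fold change was 0.11 (SE 0.36, 95% CI -0.70 to 0.92, limma adjusted p = 0.941), whose sign turned around without control mouse 3 (-0.17) or *TDP-43iΔEC* mouse 1 (-0.05). Other genes overlap 12.6% of its exons, among them the antisense gene *Gm17494* with 368 to 1135 counts, and reads there cannot be told apart. *Gclc* had 511, 8.01 and 1091 normalized counts in the controls and 961, 259.98 and 468 in the *TDP-43iΔEC* mice. Its group means were nearly equal, with a ratio of 1.05 (537 ± 542 against 563 ± 360.2), and the log2 fold change of 1.64 (SE 1.52, 95% CI -1.80 to 5.08, limma adjusted p = 0.737) became -0.52 without control mouse 2. Between the subunits, *Gclc* over *Gclm* in CPM per kb was 0.362, 0.00357 and 1.11 in the controls and 0.521, 0.166 and 0.354 in the *TDP-43iΔEC* mice.

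*Slc7a11* (chr3:49846975-50398070, minus strand) encodes xCT, the light chain of the cystine/glutamate antiporter that brings in cystine for glutathione synthesis. It had 38.3, 0.890 and 101 normalized counts in the controls and 613, 97.8 and 820 in the *TDP-43iΔEC* mice. The groups overlapped by a narrow margin, with *TDP-43iΔEC* mouse 2 just under control mouse 3, and *TDP-43iΔEC* mice 1 and 3 were far above every control. The ratio of means was 10.96, the log2 fold change 4.46 (SE 2.12, 95% CI -0.34 to 9.26, limma adjusted p = 0.558) and the exact permutation p was 0.2. Without control mouse 2 the log2 fold change was 2.55. Only DESeq2, quantile normalization, the fit with the replicate number and the fit without *TDP-43iΔEC* mouse 2 gave an unadjusted p under 0.05. The partner of xCT, the heavy chain encoded by *Slc3a2*, had a log2 fold change of -0.54 (limma unadjusted p = 0.00814, adjusted p = 0.360). In TMM-scaled CPM every *TDP-43iΔEC* mouse lay below every control for *Slc3a2*. In normalized counts, by contrast, *TDP-43iΔEC* mouse 2 was just above control mouse 3.

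**Figure D2:**
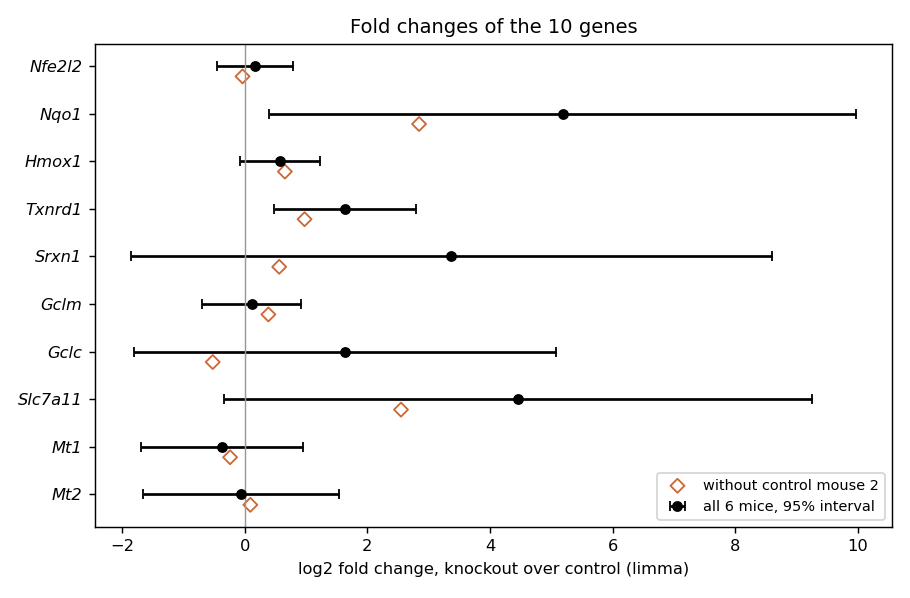
Log2 fold change of knockout (*TDP-43iΔEC*) over control for each of the 10 genes from limma. Black points with bars are estimates and 95% confidence intervals from all 6 mice, and orange diamonds are the estimates without control mouse 2. The intervals of *Nqo1* and *Txnrd1* lie above 0, and the diamonds of *Nqo1*, *Srxn1*, *Gclc* and *Slc7a11* lie far to the left of their points.

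The promoters of *Srxn1* and *Slc7a11* are shown because both genes are known to be controlled through elements near their start sites, an ARE in *Srxn1* and, in *Slc7a11*, C/EBP-ATF response elements (CAREs) that bind ATF4, a factor of the amino acid and endoplasmic reticulum stress response. RefSeq promoters (250 bases before to 50 after the start site, table built on GRCm38.p6) were given for 8 of the 10 genes, all but *Hmox1* and *Gclc*, and the printed ones matched GRCm39 at 1 place each. Both strands were searched for the ARE core TGACNNNGC or TGAGNNNGC, the CARE TGATGCAA, the MRE core TGCACNC or TGCGCNC and the AP-1 site TGACTCA or TGAGTCA, which can lie within an ARE core. Capitals mark the ARE core in *Srxn1* (chr2:151947194-151947493, plus strand) and the CARE in *Slc7a11* (chr3:50398013-50398312, minus strand).
Srxn1: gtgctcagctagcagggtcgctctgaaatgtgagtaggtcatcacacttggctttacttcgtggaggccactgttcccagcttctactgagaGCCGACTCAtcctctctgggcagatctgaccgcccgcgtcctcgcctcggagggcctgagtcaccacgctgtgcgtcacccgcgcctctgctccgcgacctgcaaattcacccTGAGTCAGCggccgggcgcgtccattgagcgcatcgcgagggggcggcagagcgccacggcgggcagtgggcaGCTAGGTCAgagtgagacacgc
Slc7a11: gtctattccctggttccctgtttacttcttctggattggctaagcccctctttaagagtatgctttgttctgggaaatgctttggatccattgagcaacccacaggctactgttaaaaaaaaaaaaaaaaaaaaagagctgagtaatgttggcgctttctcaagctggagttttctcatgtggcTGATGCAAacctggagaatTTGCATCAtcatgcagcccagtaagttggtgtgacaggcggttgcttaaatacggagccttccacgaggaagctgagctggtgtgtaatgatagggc

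The *Srxn1* window held 3 ARE cores, 1 of them with an AP-1 site inside it. An ARE core occurred in 27.9% of 32544 promoters and at least 2 in 4.71%. Among the 8 members with a promoter, 6 held an ARE core, 3 in *Srxn1* and 1 each in *Nfe2l2*, *Slc7a11*, *Gclm*, *Mt2* and 1 of the 3 windows of *Txnrd1*. The *Nqo1* and *Mt1* windows held none. The *Slc7a11* window held the CARE on both strands, as 2 matches, where 0.867% of promoters held at least 1 and 0.00615% at least 2. These matches describe letters in short windows, and AREs that lie farther from the start site were not searched.

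The metallothionein genes lie side by side on the plus strand of chromosome 8, *Mt2* at chr8:94898819-94900207 and *Mt1* at chr8:94905710-94906955, with 5502 bases between them. Their promoters are shown because zinc acts on both genes through MREs, with matches to the MRE core in capitals (*Mt1*, chr8:94905467-94905766, and *Mt2*, chr8:94898996-94899295, both plus strand).
Mt1: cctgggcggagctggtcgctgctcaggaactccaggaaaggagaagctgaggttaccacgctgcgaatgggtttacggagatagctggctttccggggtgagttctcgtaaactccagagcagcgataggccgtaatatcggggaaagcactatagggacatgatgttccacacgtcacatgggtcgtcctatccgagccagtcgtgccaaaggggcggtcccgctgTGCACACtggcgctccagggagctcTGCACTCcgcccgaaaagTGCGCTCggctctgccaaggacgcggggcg
Mt2: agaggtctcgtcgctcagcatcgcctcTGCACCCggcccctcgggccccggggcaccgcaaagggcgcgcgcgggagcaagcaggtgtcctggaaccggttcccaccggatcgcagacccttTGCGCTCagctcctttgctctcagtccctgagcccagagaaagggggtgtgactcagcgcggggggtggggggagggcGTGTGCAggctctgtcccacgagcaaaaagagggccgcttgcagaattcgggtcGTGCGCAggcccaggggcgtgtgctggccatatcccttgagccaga

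The *Mt2* window held 4 MRE cores and the *Mt1* window 3. Counted from the start site used, the *Mt1* cores began at bases -23, 2 and 20, and the *Mt2* cores at -223, -128, -50 and 4. MREs outside the windows were not searched, so these counts depend on the start site. An MRE core occurred in 25.9% of all promoters and at least 2 in 7.17%. Among the other members *Gclm* held 3 and *Srxn1* 1.

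*Mt1* had 1688, 2448 and 1739.9 normalized counts in the controls and 2802, 457 and 2238 in the *TDP-43iΔEC* mice. *TDP-43iΔEC* mouse 2 was the lowest of all 6 mice and *TDP-43iΔEC* mouse 1 the highest, so the groups overlapped. The means were 1959 ± 425 and 1832 ± 1224 (SD, n = 3), and the log2 fold change was -0.37 (SE 0.58, 95% CI -1.70 to 0.95, limma adjusted p = 0.854). *Mt2* had 379, 579 and 356 normalized counts in the controls and 595, 143 and 718 in the *TDP-43iΔEC* mice. Again *TDP-43iΔEC* mouse 2 was lowest, while the other 2 *TDP-43iΔEC* mice lay above every control. Its log2 fold change was -0.06 (SE 0.71, 95% CI -1.67 to 1.54, limma adjusted p = 0.988), with a positive sign under scaling by library size only (0.16). Without *TDP-43iΔEC* mouse 2 the log2 fold changes were 0.38 for *Mt1* and 0.53 for *Mt2*, and *Mt2* no longer overlapped. Astrocyte markers had a summed level of 27.1, 6.57 and 7.43 CPM in *TDP-43iΔEC* mice 1 to 3, and their part in the metallothionein levels was not tested.

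Both metallothioneins thus followed the same mice. Over the 6 libraries the log2 CPM of *Mt1* and *Mt2* had a Pearson r of 0.96, the highest of the 45 pairs among the 10 genes. That r includes *TDP-43iΔEC* mouse 2, which was far below the other mice for both genes, and it was not computed without that mouse. The ratio of *Mt1* to *Mt2* normalized counts was 4.45, 4.22 and 4.88 in the controls and 4.71, 3.19 and 3.12 in the *TDP-43iΔEC* mice. The genes most like *Mt1* over the 6 libraries were *Gabpb2*, *Cc2d2a* and *Focad* (r = 0.99 each), and those most like *Mt2* were *Tmc4* (r = 0.99), *Tsg101-ps* and *Ccm2l* (r = 0.98 each), out of 13106 genes searched. With so few libraries such values were common, and 98 genes had r above 0.9 with *Mt1* and 92 with *Mt2*. The exons of *Mt2* overlap the antisense gene *Gm45774* over 82.4% of their length, but *Gm45774* had at most 20 counts in a library. The exons of *Mt1*, *Hmox1*, *Gclc*, *Txnrd1*, *Nqo1* and *Slc7a11* overlap no other gene. The brain metallothionein *Mt3* had 17 to 265 counts, and *Mt4* had 0 in all 6 libraries, which allows up to 3 counts in each.

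**Figure D3:**
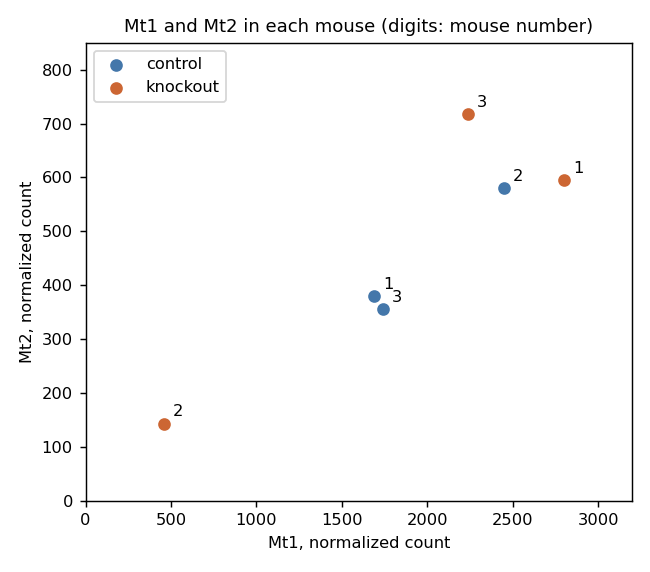
Normalized count of *Mt2* against that of *Mt1*, with 1 point per mouse, numbered as in the text, blue for control and orange for knockout (*TDP-43iΔEC*) mice. The points rise together, *TDP-43iΔEC* mouse 2 lies lowest on both axes, and the other *TDP-43iΔEC* mice lie above the controls on the *Mt2* axis.

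Among the other members, *Nfe2l2* and *Srxn1* had r = 0.90 and *Nqo1* and *Slc7a11* r = 0.88 over the 6 libraries, whereas *Gclc* and *Gclm* had r = -0.72. These values include the low counts of control mouse 2 and the difference between the groups.

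The regulators of NRF2 had a median log2 fold change of 0.66 over 12 tested of 13 genes, with 1 higher and 0 lower at an unadjusted p under 0.05 in limma (4.26% and 5% of all genes), and none passed the adjusted threshold. *Sqstm1*, which encodes p62, an autophagy receptor that binds KEAP1, had 22056, 16265 and 18890.5 normalized counts in the controls and 40627, 35215 and 28203 in the *TDP-43iΔEC* mice. The groups did not overlap, and the log2 fold change was 0.85 (SE 0.18, limma unadjusted p = 0.00124, adjusted p = 0.223). *Gsk3b*, a kinase that marks NRF2 for degradation, had 0.96 (adjusted p = 0.558), and *Btrc*, the ubiquitin ligase subunit that follows it, had 4.11 (adjusted p = 0.569) with a 0 in control mouse 2. Without that mouse the log2 fold changes were 0.33 for *Gsk3b*, 0.63 for *Btrc* and 0.71 for *Sqstm1*, and the list median was 0.40. *Keap1* itself had 0.55 (adjusted p = 0.779) and *Bach1*, a repressor of *Hmox1*, 0.76 (adjusted p = 0.753). At an unadjusted p under 0.05 in limma, 2 regulators were higher without control mouse 2. In that fit 1316 of 14381 genes had such a p in either direction. The 2 were *Sqstm1* and the small MAF gene *Mafk* (1.34, limma unadjusted p = 0.0137, adjusted p = 0.437).

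Among further NRF2 targets, the genes with an unadjusted p under 0.05 in limma were lower, whereas *Nqo1* and *Txnrd1* were higher at that level. Of 28 further targets 24 were tested, and 12 of these had a log2 fold change above 0, against 49.3% of all genes. At an unadjusted p under 0.05 in limma 0 were higher and 3 were lower, beside 4.26% and 5% of all genes. The median log2 fold change was 0.03, beside -0.02 over all genes (-0.06 without control mouse 2, beside -0.17). *Gsta4*, a glutathione S-transferase that acts on lipid peroxidation products, fell from 48398 ± 2255 to 15443 ± 279.8 normalized counts (SD, n = 3), a log2 fold change of -1.68 (SE 0.12, limma adjusted p = 0.00348). This was the only gene of the NRF2 and metal lists past the adjusted threshold. The call was not made by edgeR, which called 0 of all genes, or by limma without *TDP-43iΔEC* mouse 1, which also called 0 of all genes, and it was made without control mouse 2. *Gstm1* (-0.85, adjusted p = 0.101) and *Abcc4*, an efflux transporter (-0.86, adjusted p = 0.308), were the other 2 lower genes. *Gsta4*, *Gstm1* and *Abcc4* had lower values in every *TDP-43iΔEC* mouse than in any control. Of 6 genes lower without overlap, the other 3 were *Pir*, *Taldo1* and *Blvrb*, and 1 gene, *Osgin1*, was higher without overlap, beside 7.93% lower and 7.38% higher of all genes. *Osgin1* had 390.2, 4.45 and 420.4 normalized counts in the controls and 738, 1244 and 1076 in the *TDP-43iΔEC* mice. Its log2 fold change of 3.26 (adjusted p = 0.541) became 1.17 without control mouse 2.

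Of 18 other antioxidant enzymes, 4 were higher and 3 lower without overlap, beside 7.38% and 7.93% of all genes. At an unadjusted p under 0.05 in limma 2 were higher and 0 lower, beside 4.26% and 5% of all genes, with a median log2 fold change of 0.01. These were the glutathione peroxidase *Gpx1* (0.42, adjusted p = 0.4998) and the mitochondrial thioredoxin *Txn2* (0.49, adjusted p = 0.535), and without control mouse 2 there were 0. The mitochondrial peroxiredoxin *Prdx3* had -0.51 (adjusted p = 0.544). Among 9 heme genes none reached an unadjusted p of 0.05, and the lowest p values belonged to *Cpox* (3.20, adjusted p = 0.596, and 2.44 without control mouse 2, which had 6 counts), *Alas1* (0.29, adjusted p = 0.602) and *Flvcr1*, a heme exporter (1.505, adjusted p = 0.606). *Alas1*, the rate-limiting enzyme of heme synthesis, was higher in all 3 *TDP-43iΔEC* mice than in any control.

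Genes of zinc and copper handling, set beside the metallothioneins, were mostly at lower values in the *TDP-43iΔEC* mice. Of 21 tested of 23 genes, 7 had a log2 fold change above 0, against 49.3% of all genes. At an unadjusted p under 0.05 in limma 0 were higher and 3 lower, beside 4.26% and 5% of all genes. The median log2 fold change was -0.39, beside -0.02 over all genes. The list summed to 2816 to 3037 CPM in the controls and 1846 to 2257 in the *TDP-43iΔEC* mice. *Slc39a10* and *Slc31a1*, both lower, had the highest counts in that sum. The zinc importer *Slc39a10* had 32971, 41434 and 27525 normalized counts in the controls and 19361, 17962 and 16737 in the *TDP-43iΔEC* mice, with no overlap (log2 fold change -0.92, SE 0.17, limma adjusted p = 0.140). The copper importer *Slc31a1* had -0.65 (adjusted p = 0.270) and the copper chaperone *Ccs*, which loads superoxide dismutase, -0.69 (adjusted p = 0.490), both also without overlap. *Mtf1*, the zinc sensor that activates *Mt1* and *Mt2*, had 0.29 (adjusted p = 0.883).

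*Slc7a11* is a target of ATF4 as well as of NRF2, and glucocorticoids act on *Mt1* and *Mt2*, so both groups were examined. Of 15 ATF4-related genes, 7 were higher and 3 lower at an unadjusted p under 0.05 in limma, beside 4.26% and 5% of all genes, with a median log2 fold change of 0.69 (0.58 without control mouse 2) and none past the adjusted threshold. *Atf4* had 5632, 6437 and 6339.58 normalized counts in the controls and 10591, 9533 and 10284 in the *TDP-43iΔEC* mice, with no overlap (log2 fold change 0.69, SE 0.17, limma adjusted p = 0.271). *Phgdh*, the first enzyme of serine synthesis, had 2.44 (adjusted p = 0.311), and *Ddit3*, which encodes CHOP, had 1.48 (adjusted p = 0.334). The 3 lower genes were the amino acid transporter genes *Slc7a1* (-0.82), *Slc7a5* (-0.52) and *Slc3a2*, named above. Of 10 glucocorticoid-responsive genes, 2 were higher and 1 lower at an unadjusted p under 0.05 in limma, beside 4.26% and 5% of all genes. Their median log2 fold change was 0.17, beside -0.02 over all genes (-0.13 without control mouse 2, beside -0.17). *Sgk1* had 1.079 (adjusted p = 0.126) and *Errfi1* 1.16 (adjusted p = 0.389), whereas *Tsc22d3*, which encodes GILZ, had -0.64 (adjusted p = 0.417). The plot of the lists gene by gene sets these spreads side by side.

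**Figure D4:**
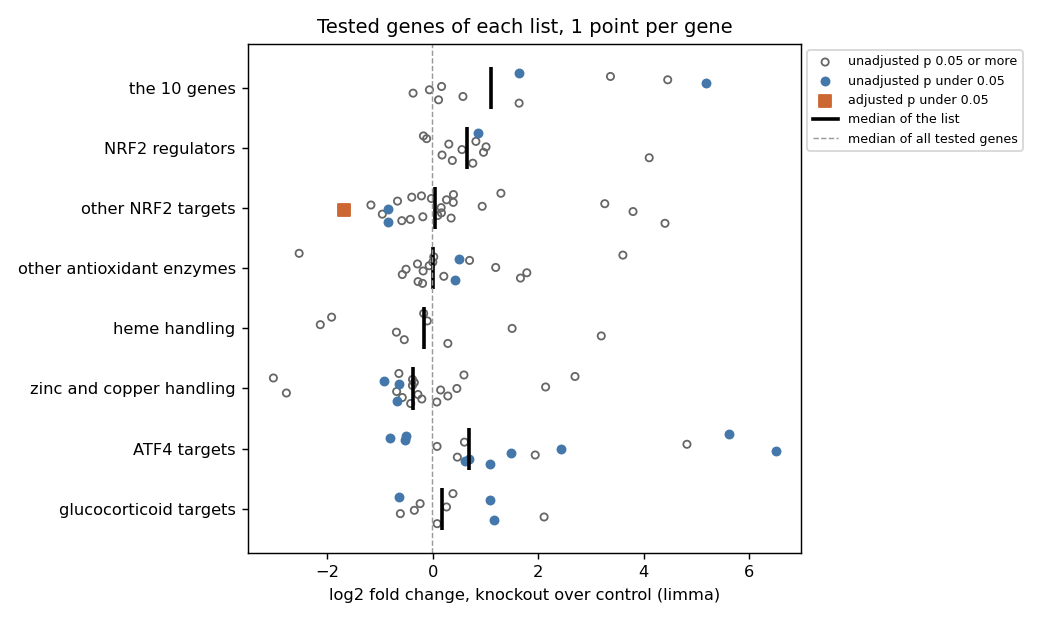
Log2 fold change of knockout (*TDP-43iΔEC*) over control from limma for every tested gene of the 10 members and of 7 related lists, with 1 point per gene, filled blue for an unadjusted p under 0.05 and a square for an adjusted p under 0.05. Black ticks are list medians and the dashed line is the median of all tested genes. The 10 genes have a median of 1.10 and zinc and copper handling one of -0.39, and the square is *Gsta4*.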

How the data were processed

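RNA-Seq libraries of FACS-sorted spinal cord ECs were prepared by the authors from small RNA inputs with SMARTseq2, without molecular identifiers, and sequenced as paired 51 bp reads. For the deposited table, the authors mapped reads with STAR 2.7.8a (GRCm39) and computed estimated counts per GENCODE M30 gene using RSEM 1.3.0 at default options, which do not use strand. The deposited estimated counts were whole numbers in every cell (0 values were not whole). Each of the 6 samples was 1 mouse, grouped by the labelled genotype.

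The fit over all genes used limma 3.58.1 with voom (R 4.3.3), TMM scaling and filterByExpr of edgeR 4.0.16, with no covariate, and p values were adjusted by Benjamini-Hochberg over 13107 genes. Normalized counts used size factors of DESeq2 1.42.0. Exact permutation tests were 2-sided. Positions and exonic lengths came from GENCODE M39, which matched 98.7% of identifiers. Correlations used log2 CPM with a prior count of 0.5. On simulated data with 200 genes changed 4-fold, of which 189 were tested, limma called 29 genes, all of them changed, and DESeq2 called 163, of which 66 were changed. Replicate libraries differed by far more than sampling noise (lowest chi-square per degree of freedom of 15 pairs 163.6).

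The 10 genes and the lists were chosen with earlier results of these data known. Named genes were the members, *Tardbp*, the 3 genes of lowest p in each list, any past the threshold, *Keap1*, *Bach1* and *Mtf1*, and the 3 genes most like *Mt1* or *Mt2*. *Ctss*, *C1qb*, *Mafk*, *Slc3a2*, *Slc7a1*, *Slc7a5*, *Mt3*, *Mt4*, *Osgin1*, *Pir*, *Taldo1*, *Blvrb*, *Aqp4*, *Adgre1*, *Rbfox3*, *Map2*, *Nefl* and *Mapt* and the overlapping genes were named after their values were seen. Alternatives were the quasi-likelihood test of edgeR, sample quality weights, the Wald test of DESeq2, other scalings (DESeq2 size factors, library size only, quantile), no filter or at least 10 counts in every library, leaving out hemoglobin, mitochondrial and ribosomal RNA genes, the replicate number as a block, and leaving out each mouse. The canonical transcript length and the values of the lists without control mouse 2 or *TDP-43iΔEC* mouse 1 were added after the data were seen.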

Additional observations from a re-analysis of the deposited data

How the results depend on the processing

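Under 16 alternatives of the fit, none of the 10 genes passed an adjusted p of 0.05. The lowest adjusted p of a member was 0.272 (*Txnrd1*, at least 10 counts in every library, a filter that kept 6 of the 10 members) and 0.391 in the fit as reported. Of 156 alternative log2 fold changes of the members, 144 kept their direction and side of the threshold and 12 changed sign. The count of members higher at an unadjusted p under 0.05 was 2 as reported, where 1215 of 13107 genes had such a p in either direction. It was 1 in edgeR (848 of 13107 genes) and 1 with sample quality weights (1167 of 13107). It was 1 with at least 10 counts in every library (1002 of 8982), a filter that left *Nqo1* untested. It was 3 in DESeq2 (1113 of 12916), 3 with library size only (1295 of 13107) and 3 with quantile normalization (1345 of 13107). It was from 1 to 3 when a mouse was left out, where 960 to 1316 of all genes had such a p in either direction. The count higher without overlap was 3 to 5 when a mouse was left out, the 5 being without *TDP-43iΔEC* mouse 2. Removing a mouse makes overlap less likely for any gene. That *Nqo1*, *Hmox1* and *Txnrd1* stayed among them was therefore built in. The share of all genes without overlap was not computed for these fits, so their counts cannot be set beside that from all 6 mice. Leaving out a mouse gave log2 fold changes from -0.038 to 0.33 for *Nfe2l2* (the lower without control mouse 2), -0.17 to 0.38 for *Gclm* (-0.05 without *TDP-43iΔEC* mouse 1), -0.52 to 3.04 for *Gclc*, -1.07 to 0.38 for *Mt1* and -0.60 to 0.53 for *Mt2* (0.09 without control mouse 2). *Gclc* was -0.18 with quality weights, and *Mt2* was 0.12 in edgeR, 0.15 in DESeq2 and 0.16 with library size only. Their causes were not tested. Scaling by library size only moved the median log2 fold change of all genes to 0.18. The replicate numbers did not pair the mice (correlations of same-numbered deviations -0.05, -0.08 and -0.0001), and with the replicate block *Mt2* was 0.28, the lowest member adjusted p was 0.576, and 22 of all genes were called against 18.

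Over all genes the count past the adjusted threshold was 0 in edgeR, 247 in DESeq2, 40 with quantile normalization, 76 with no filter, 39 with at least 10 counts in every library, 10 with library size only and 0 to 13 when a mouse was left out. Counts of the lists at an unadjusted p under 0.05 without *TDP-43iΔEC* mouse 1 became 1 higher for the other NRF2 targets, 1 higher and 1 lower for the other antioxidant enzymes and 1 higher for zinc and copper handling. In that fit 960 of 14210 genes had such a p in either direction. The 0 to 9 counts of control mouse 2 for *Nqo1*, *Srxn1*, *Slc7a11* and *Gclc* limit the precision of their fold changes.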
